A study of Mus musculus with 15 samples.

Results

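Libraries titled colonic tumors were compared with libraries titled normal colonic epithelium, with both sort fractions pooled. The members were found by title alone, which gave 6 tumor libraries (S03, S04, S07, S08, S11 and S12) and 8 normal libraries (S01, S02, S05, S06, S09, S10, S13 and S14) of the 15 in the series. The tumor library S15 held 357 counts and was left out. All animals carried the APCmin allele and the Lrig1-eGFP-IRES-CreERT2 reporter, in which green fluorescence marks cells that express Lrig1. The normal epithelium therefore also came from APCmin mice. Tumors were cut out of the surrounding tissue and minced, cells were freed with EDTA, TryplE and dispase, and EpCam+ cells without CD45 or CD31 were sorted by eGFP into an Lrig1-low and an Lrig1-high fraction. Each tissue had as many low as high libraries among the 14 compared, 3 of each in tumors and 4 of each in normal epithelium. The labels give no age, sex or animal for any library, so a p-value measures the spread between these libraries, which may be technical or shared within an animal.

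APC is part of the complex that marks beta-catenin for breakdown. Where both copies of Apc are lost, beta-catenin builds up, enters the nucleus and drives genes through TCF and LEF factors. The APCmin allele carries a stop codon, and tumors arise after the remaining copy is lost. Several of the genes switched on encode brakes on the pathway itself, such as Axin2, Nkd1, Notum, Rnf43, Znrf3, Wif1 and the Dkk proteins. Lrig1 sits in the membrane of stem and progenitor cells of the gut and limits signalling by ErbB receptors.

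The 14 libraries held 9508505 to 17296536 counts, and no measure of library quality passed the test between the tissues. The mean total was 12470000 in tumor and 14440000 in normal libraries (exact two-sided permutation p = 0.0819, adjusted p = 0.41 over 5 measures). S12 stood apart, with 42.8% of its counts in mitochondrial ribosomal RNA and the fewest genes with at least 10 counts, 10323, and it stood at 164 on the first principal component, where the others were at 20.2 or less. S10, labelled normal, was the normal library nearest to the tumors for 121 of the 236 genes called higher in tumors below, and S11 was the highest tumor library for 151 of them and S12 for 58. Small intestine markers had a list level, the mean log2(CPM + 1) of its genes, of 5.79 to 6.96 in every library, against 1.25 to 2.23 for colon markers, and Hoxb13 and Hoxd13, genes of the distal colon, were at 0 in all 14. The tissue is thus named colonic here by its labels only. Of the sort markers, Epcam was at 608 to 1510 CPM (counts per unit of TMM-scaled library size, as edgeR gives it) and Pecam1, which encodes CD31, at 1.84 CPM or less. The CD45 gene Ptprc reached 46.4 CPM in the tumor library S08, and no other library exceeded 11.2 CPM. Lrig1 itself was at 43.5, 64.5 and 148 CPM (lowest, median and highest) in tumors and at 36.5, 69.6 and 145 CPM in normal libraries, with a log2 fold change of 0.01 ± 0.38 (SE). It went against the fraction label in 4 libraries. S07 and S09, labelled Lrig1-low, had 142 and 85.3 CPM, and S08 and S10, labelled Lrig1-high, had 56.1 and 36.5 CPM, so a fraction is named below by its label only. Without these 4 libraries 269 genes were called higher and 6 lower in tumors, against the 236 and 53 given next. Of the 269, 145 were among the 236, and the 6 were all among the 53. Apc was at 250 to 314 CPM in tumors and at 214 to 273 CPM in normal libraries (0.14 ± 0.12), and a gene count does not read the APCmin point mutation.

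Of 12861 genes tested, 236 (1.84%) were higher and 53 (0.412%) lower in tumor libraries in edgeR's quasi-likelihood test at a Benjamini-Hochberg adjusted p under 0.05, and 2186 had an unadjusted p under 0.05. The genes called higher had a median log2 fold change of 2.24, and 207 of them were past 2-fold. Those called lower had a median of -1.02, with 29 past 2-fold. All 6 tumor libraries lay above all 8 normal libraries in 124 genes (0.964% of those tested) and below them in 71 (0.552%), which included 102 of the genes called higher and 26 of those called lower. The median over all genes tested was -0.0059. The number of calls rested on single libraries. It was 295 higher and 38 lower without S10 and 270 and 104 without S12. Of these higher genes, 212 and 192 were among the 236. The number was 51 and 6 without S11, 37 and 5 without S09, 52 and 6 without S01, and 74 and 12 without S05. Without S13 it was 79 and 17, without S02 146 and 38, without S14 120 and 47, and without S07 241 and 33.

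**Figure D1:**
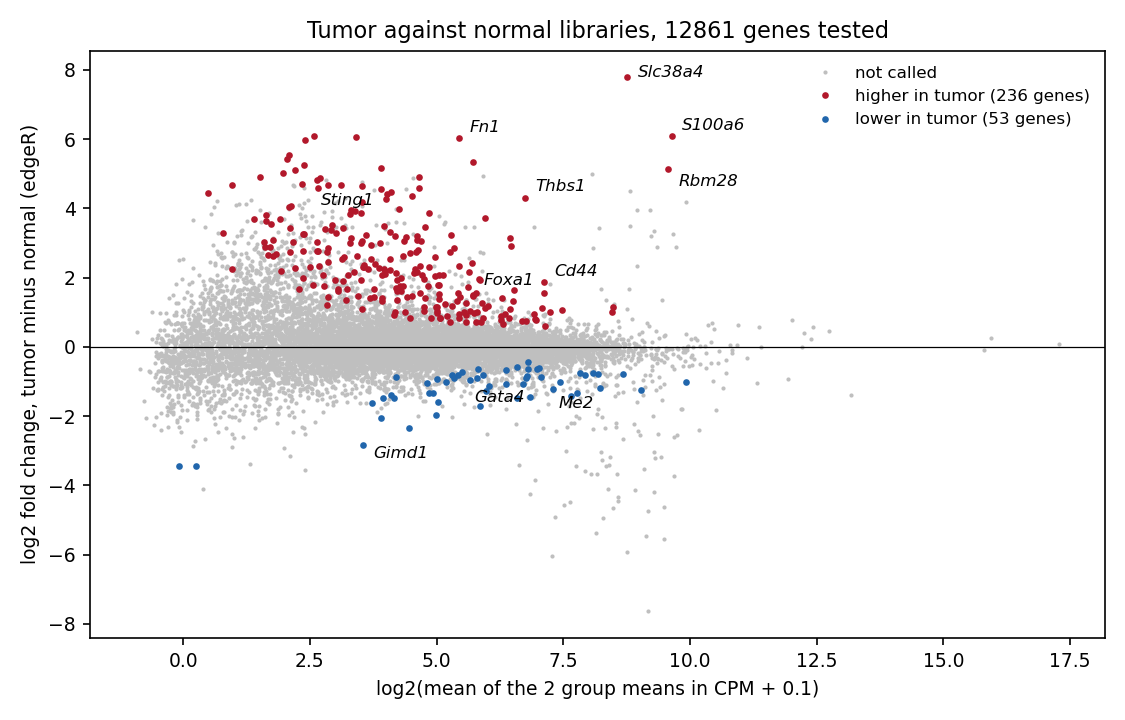
Log2 fold change of tumor over normal libraries from edgeR (vertical axis) against log2 of the mean level in CPM + 0.1 (horizontal axis), 1 point per gene, with the 236 genes called higher in red and the 53 called lower in blue. The largest folds belong to genes of low or moderate level, apart from Slc38a4, S100a6 and Rbm28, whose means are set by the tumor library S03.

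A set of 34 higher and 5 lower genes was called in the fit on all 14 libraries and in each of the 14 fits that left out 1 library. Of these, 18 higher and 2 lower genes were also called when libraries of consecutive numbers and the same tissue were summed, which left 4 normal and 3 tumor samples. All 39 were called as well without S09 and S10 together, each of which had already been left out singly. They did not all hold when other runs of libraries were left out. Over all genes, 0 were called without S05 to S08, and 6 higher and 1 lower without S01 to S04. Without S13 and S14 it was 19 and 4, and without S09 to S12 198 and 9, with 4 of these 9 among the 53. Those of the 39 that the naming rule does not hold, such as Foxq1, Cd9, S100a11 and Plet1, were chosen after their values were seen.

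The smallest adjusted p was shared by Foxa1, Pmepa1, Phlda1 and Sting1. Foxa1 (gene 15375, mm10 chromosome 12, 57540631 to 57546121) is a forkhead transcription factor that opens chromatin in gut epithelium. It was at 59.5, 74.0 and 112 CPM in tumors (lowest, median and highest) and at 18.3, 27.9 and 37.0 CPM in normal libraries. The lowest tumor library thus lay well above the highest normal one, S10, and the log2 fold change was 1.47 ± 0.18 (SE, n = 6 and 8, adjusted p = 0.0023). Foxq1, another forkhead factor, was at 14.5, 29.8 and 73.1 CPM against 3.16, 4.78 and 9.18 CPM (2.63 ± 0.37, adjusted p = 0.006), again with no overlap. Nfe2l3, a bZIP factor related to Nrf2, was at 6.39, 24.8 and 67.8 CPM against 0.311, 0.886 and 5.65 CPM (4.27 ± 0.74). Its highest normal value was in S10, close below the lowest tumor value in S07. Hoxa3, a homeobox gene, was at 3.22, 5.44 and 10.1 CPM in tumors and at 2.17 CPM or less in normal libraries (2.19 ± 0.40).

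Among the signalling genes, Phlda1, a pleckstrin homology protein induced by growth factors (gene 21664, mm10 chromosome 10, 111506286 to 111508649), was at 43.6, 63.4 and 146 CPM in tumors and at 6.93, 13.4 and 20.7 CPM in normal libraries. Its log2 fold change was 2.34 ± 0.29 (adjusted p = 0.0023). Pmepa1, a membrane protein that TGF-beta induces and that dampens TGF-beta signalling (gene 65112, mm10 chromosome 2, 173224465 to 173276533), was at 29.1, 45.2 and 94.3 CPM against 9.04, 13.1 and 16.3 CPM (2.08 ± 0.26, adjusted p = 0.0023). Both groups of values stood apart for either gene, and S11 was the highest library in both. Sting1, the adaptor of the response to cytosolic DNA, was at 11.1, 26.6 and 60.1 CPM against 0.895, 2.34 and 4.74 CPM (3.50 ± 0.44, adjusted p = 0.0023). It was the 1 called gene among 19 tested members of the list of nucleic acid sensing and interferon genes, whose median fold was 0.06. Arhgef3, a guanine nucleotide exchange factor, rose by 1.41 ± 0.25, and Shf, an SH2 adaptor, by 1.93 ± 0.34, both on the log2 scale.

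Cell surface genes formed the next group. Cd9, a tetraspanin, was at 46.4, 71.7 and 183 CPM in tumors and at 14, 25.2 and 29.8 CPM in normal libraries (log2 fold change 1.93 ± 0.28, adjusted p = 0.0061), highest in S12. Plet1, a surface protein of progenitor and regenerating epithelium, was at 1.65, 5.87 and 10.0 CPM against 0.0629, 0.244 and 1.01 CPM (3.80 ± 0.61). Cd177, a GPI-anchored protein better known from neutrophils that is also made by colonic epithelium, was at 28.3, 55.0 and 94.7 CPM against 6.62, 12.9 and 20.7 CPM (2.09 ± 0.31). The neutrophil genes S100a8 and S100a9 were at 0 in all 14 libraries. Celsr1, a planar polarity cadherin (1.18 ± 0.20), Fxyd3, a regulator of the sodium pump (2.0 ± 0.34, with 13.5 CPM in S10 above the 12.8 CPM of the tumor library S04), and the tetraspanin Tspan5 (2.08 ± 0.38) rose too. Cdh2, N-cadherin, was at 1.74, 5.49 and 23.6 CPM against 0.608 CPM or less (5.42 ± 0.91, adjusted p = 0.012). It was the 1 called gene of 12 tested in the list of cadherins and epithelial-mesenchymal transition, whose median fold was -0.21.

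Of genes of the cytoskeleton and matrix, Flna, the gene of filamin A, which crosslinks actin, was at 40.8, 67.1 and 214 CPM in tumors and at 9.66, 15.6 and 24.7 CPM in normal libraries (2.42 ± 0.36, adjusted p = 0.0061). Tpm4, a tropomyosin, was at 132, 146 and 237 CPM against 64.4, 83.7 and 93.2 CPM, a smaller fold of 0.96 ± 0.14 with a narrow spread. Thbs1, thrombospondin-1, was at 56.2, 180 and 513 CPM against 1.06, 9.58 and 29.6 CPM (4.31 ± 0.67, adjusted p = 0.0081). Fn1, fibronectin, was at 20.4, 50.7 and 248 CPM against 0.00, 0.548 and 7.05 CPM (6.03 ± 0.97, adjusted p = 0.01). S10 held the 7.05 CPM, and the other 7 normal libraries were at 0.984 CPM or less. S100a11, a calcium-binding protein, was at 23.1, 44.0 and 174 CPM against 6.17, 10.4 and 14.7 CPM (2.75 ± 0.38). Blood protein genes were in the set as well: F5, coagulation factor V, rose by 2.86 ± 0.52 and Cfi, complement factor I, by 2.93 ± 0.50.

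**Figure D2:**
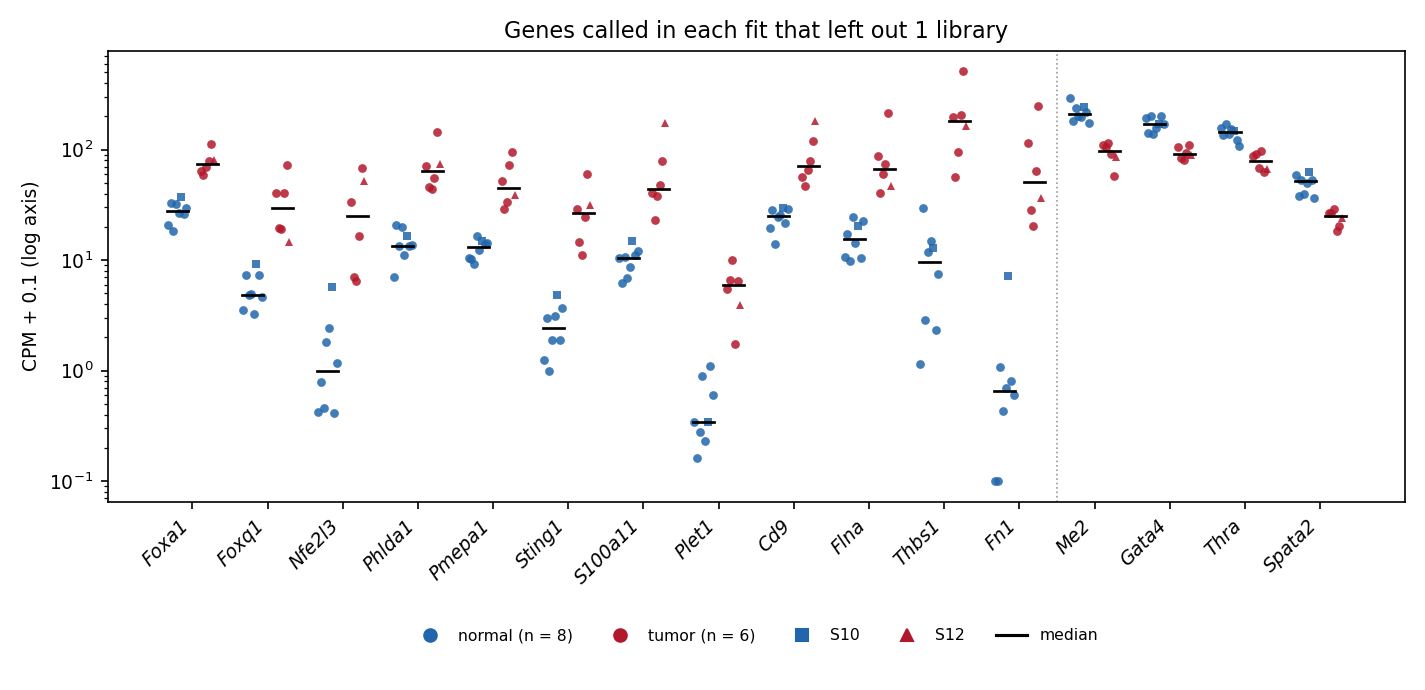
CPM + 0.1 per library on a log axis for 12 genes called higher and, right of the dotted line, 4 called lower in tumors in every fit that left out 1 library. Blue points are the 8 normal and red points the 6 tumor libraries, black bars their medians, the square S10 and the triangle S12. For each gene the tissues do not overlap. S10 is the normal library closest to the tumors for Foxa1, Foxq1, Nfe2l3, Sting1, S100a11, Cd9 and Fn1.

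The 5 lower genes changed by less. Gata4, a GATA factor of proximal gut (gene 14463, mm10 chromosome 14, 63198915 to 63245260), was at 80.7, 91.1 and 110 CPM in tumors and at 140, 171 and 201 CPM in normal libraries (log2 fold change -0.88 ± 0.13, adjusted p = 0.0061). Me2, a mitochondrial malic enzyme, was at 57.3, 98.3 and 116 CPM against 173, 210 and 294 CPM (-1.21 ± 0.17, adjusted p = 0.006). Thra, thyroid hormone receptor alpha, was at 62.8, 78.2 and 98.1 CPM against 108, 143 and 170 CPM (-0.84 ± 0.14). Spata2, an adaptor of the deubiquitinase CYLD, fell by 1.02 ± 0.17 and Ap1ar, an adaptor-protein regulator of membrane traffic, by 0.65 ± 0.11 on the log2 scale. The groups did not overlap in any of the 5. Gata4 and Spata2 were the ones also called with libraries summed.

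Of the 4 that mark the tumors, Cd44, a hyaluronan receptor (gene 12505, mm10 chromosome 2, 102811141 to 102901665), was called. It was at 121, 226 and 297 CPM in tumors and at 18.9, 54.1 and 135 CPM in normal libraries, and the normal library S06 lay above the tumor library S08. The log2 fold change was 1.87 ± 0.42 (adjusted p = 0.034), and it missed the threshold without S01, S05, S07, S09, S11, S12, S13 or S14, with an adjusted p of up to 0.0897. It also missed it with a block for each run of neighbouring library numbers (1.81 ± 0.51, adjusted p = 0.114), but not with libraries summed within runs (adjusted p = 0.0254). Nkd1, an inhibitor that binds Dishevelled (gene 93960, mm10 chromosome 8, 88521344 to 88594887), was at 40.8, 149 and 723 CPM in tumors and at 0.777, 5.80 and 98.0 CPM in normal libraries. Its fold of 3.48 ± 0.98 did not pass (adjusted p = 0.0758). Notum, a secreted enzyme that removes the lipid from Wnt ligands (gene 77583, mm10 chromosome 11, 120653788 to 120660837), was at 14.3, 46.4 and 309 CPM against 0.144, 1.08 and 42.0 CPM (3.47 ± 1.14, adjusted p = 0.123). Axin2, a scaffold of the destruction complex (gene 12006, mm10 chromosome 11, 108920349 to 108950783), was at 124, 236 and 446 CPM against 46.7, 100 and 330 CPM (0.78 ± 0.48, adjusted p = 0.441).

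Libraries labelled normal overlapped the tumors in Nkd1 (S10) and in Notum (S09 and S10). S10 had 98.0 CPM of Nkd1 and 42.0 CPM of Notum, and S09 had 33.9 and 15.5 CPM, while the other 6 normal libraries were at 9.10 CPM or less of Nkd1 and 1.48 CPM or less of Notum. Without S10 the log2 fold changes were 4.67 ± 0.89 for Nkd1 (adjusted p = 0.0138) and 4.89 ± 1.08 for Notum (adjusted p = 0.0257). Without S09 and S10 they were 5.62 ± 0.83 (adjusted p = 0.0044) and 6.82 ± 0.91 (adjusted p = 0.0028), and Cd44 then had an adjusted p of 0.0929 at a like fold, 1.83 ± 0.50. With the block for runs of library numbers, Nkd1 and Notum passed (3.71 ± 0.67 and 4.37 ± 0.79, adjusted p = 0.022 for both), and with libraries summed within runs they did not (adjusted p = 0.171 and 0.234). S09 and S10 were singled out after their values were seen, so the p-values without them are too small.

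The 4 markers also differed in how they went with Lrig1. The 3 normal libraries with the most Lrig1, S02, S06 and S14 at 126 to 145 CPM, had 249 to 330 CPM of Axin2, and the tumor libraries S04 and S07 at 148 and 142 CPM of Lrig1 had 244 and 314 CPM. At that level of Lrig1 the tissues did not stand apart in Axin2. In the same libraries Nkd1 was at 4.10 to 9.10 CPM in the normal and at 48.7 and 40.8 CPM in the tumor libraries, and Notum at 0.144 to 0.503 and at 18.7 and 14.3 CPM. These 3 normal libraries had more Axin2, Cd44 and Nkd1 than S01, S05 and S13, at 45.3 to 53.9 CPM of Lrig1, but less Notum. With log2 Lrig1 CPM as a covariate, the folds were 1.22 ± 0.40 for Axin2 (adjusted p = 0.1), 3.30 ± 0.80 for Nkd1 (adjusted p = 0.0286), 3.68 ± 0.86 for Notum (adjusted p = 0.024) and 2.05 ± 0.35 for Cd44 (adjusted p = 0.0046), and 499 genes were called higher and 160 lower. All but 1 of the 236 and all 53 were among them.

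**Figure D3:**
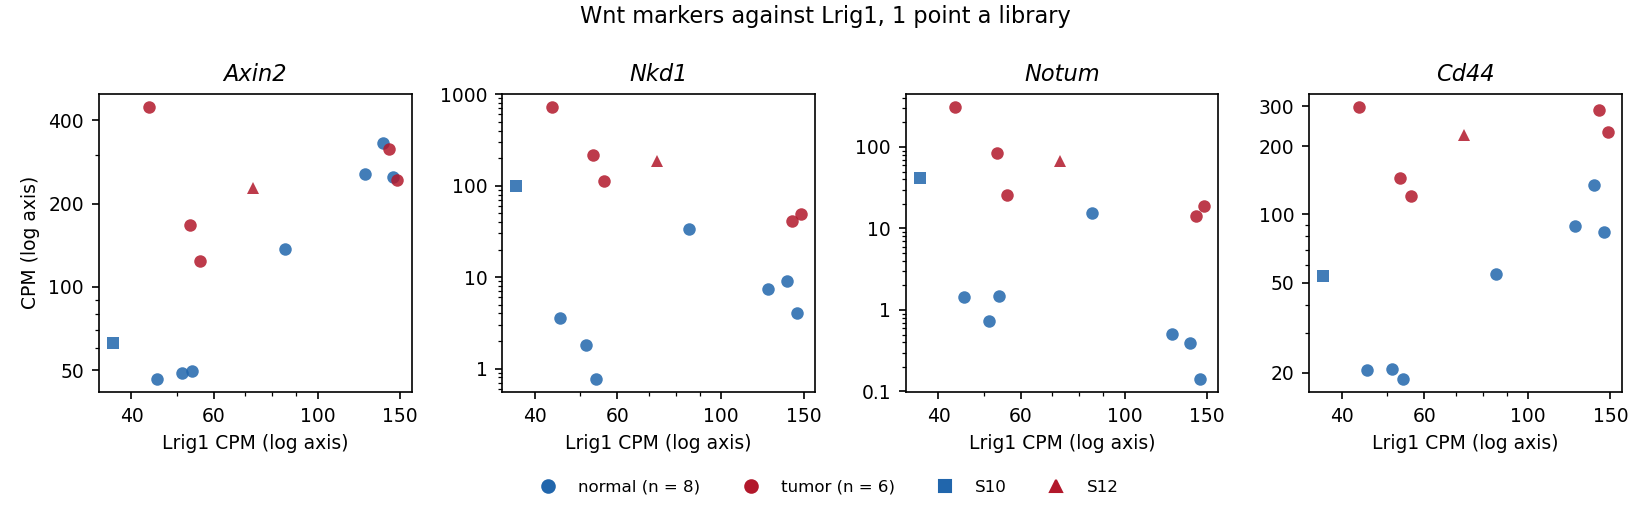
CPM of Axin2, Nkd1, Notum and Cd44 (vertical axes, log) against CPM of Lrig1 (horizontal axes, log), 1 point per library, with normal libraries in blue, tumor libraries in red, S10 as a square and S12 as a triangle. Axin2 reaches 330 CPM in normal libraries with much Lrig1, whereas Nkd1 and Notum are at 9.10 and 1.48 CPM or less in the normal libraries other than S09 and S10.

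Across the list of Wnt and beta-catenin targets, 6 of 27 tested members rose and none fell, 25 had a positive fold and the median was 1.37. The 6 are 22.2% of the list, where 1.84% of all genes tested were called higher and 0.412% lower. The counts of the other lists, above and below, are to be read against the same shares. The list level was 4.22 to 6.18 in tumors and 2.46 to 4.03 in normal libraries, with no overlap. Beside Cd44, secreted antagonists and transcription factors were called. Of the antagonists, Wif1, which binds Wnt ligands, was at 3.57, 24.7 and 173 CPM in tumors against 0.216, 1.17 and 8.51 CPM (4.6 ± 0.96, adjusted p = 0.0262), and Dkk2, a ligand of LRP co-receptors, at 0.652, 2.89 and 28.3 CPM against 0.733 CPM or less (5.55 ± 1.17, adjusted p = 0.0263). Of the transcription factors, Tcf7l1, a TCF factor, rose by 3.69 ± 0.77 (adjusted p = 0.0255), Prox1, a homeobox factor of intestinal adenomas, by 3.14 ± 0.73 (adjusted p = 0.0381) and Sp5, a zinc finger factor, by 2.10 ± 0.50 (adjusted p = 0.0422). Prox1 was at 38.4, 110 and 475 CPM in tumors and at 4.22, 10.3 and 70.4 CPM in normal libraries. Tcf7l1 was low, at 0.948, 3.61 and 23.6 CPM in tumors, highest in S12, and at 1.22 CPM or less in normal libraries. Its tumor library S04 lay below the normal library S01. Lef1 (3.89 ± 1.01), Znrf3 (1.37 ± 0.39) and Lgr5 (1.36 ± 0.81) did not pass, nor did Myc (0.30 ± 0.44) and Ccnd1 (0.61 ± 0.32). The count was 3 without S12, 7 without S09 and S10 and 10 with the Lrig1 covariate. These counts do not span every setting. Cd44, Wif1, Dkk2 and Tcf7l1 all lost their calls without S05, and likewise without S09, S11 or S13. Wif1 lost its call without S01, S05, S09, S11 or S13 (adjusted p up to 0.0805), Dkk2 and Tcf7l1 without S05, S09, S11 or S13 (up to 0.0843 and 0.059). Sp5 and Prox1, named after their values were seen, lost theirs without 9 and 10 of the 14 libraries in turn (up to 0.146 and 0.123).

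The ErbB and MAPK feedback list had 4 of 24 members called, all higher, and a median of 0.39. Beside Phlda1 these were Dusp6, the phosphatase that switches off ERK (17.9, 25.2 and 65.3 CPM in tumors against 5.01, 6.80 and 14.8 CPM), and the ETS factors Etv4 and Etv5. Their log2 fold changes were 1.75 ± 0.36 for Dusp6 (adjusted p = 0.0246), 2.58 ± 0.56 for Etv4 (adjusted p = 0.0277) and 3.22 ± 0.68 for Etv5 (adjusted p = 0.0269). Dusp6 lost its call without S01, S09 or S11 (adjusted p up to 0.0665), Etv4 and Etv5 without S01, S05, S09, S11, S13 or S14 (up to 0.0843). In the TGF-beta and BMP list 2 of 26 rose, Pmepa1 and the receptor Tgfbr2, which was at 40, 50.1 and 141 CPM against 12.4, 23 and 30.2 CPM (1.57 ± 0.30, adjusted p = 0.0221; up to 0.0537 without S01 or S09). YAP and TAZ targets had 5 of 18 higher and a median of 0.52: Amotl1, Arhgef17, Ptpn14, Rbms3 and Ajuba. Amotl1, a binding partner of YAP, was at 15.3, 30.2 and 132 CPM against 0.0895, 4.98 and 12.7 CPM (3.06 ± 0.70, adjusted p = 0.0356). It missed the threshold without S01, S02, S06, S09, S11, S13 or S14 (adjusted p up to 0.122). Ptpn14, Arhgef17 and Rbms3 were called in 4, 5 and 7 of the 14 fits that left out 1 library. Without S09 and S10, 3 members of the list were called. The list level of the normal library S10, 3.01, lay inside the tumor range of 2.54 to 3.97.

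Genes of matrix turnover and adhesion rose in part. Of 14 tested matrix glycoproteins and collagens 2 were called, Fn1 and Thbs1, with a median of 1.25. Of 14 proteases and inhibitors 3 were called, with a median of 1.3. These were Mmp14, a membrane-bound metalloproteinase at 80.4, 103 and 289 CPM against 36.1, 51.6 and 70.9 CPM (1.32 ± 0.27, adjusted p = 0.0255), Adam8, another membrane protease (3.96 ± 0.75, adjusted p = 0.0199), and Timp2, an inhibitor of such proteases (3.45 ± 0.67, adjusted p = 0.0225). Mmp14 lost its call without S01, S05, S09 or S13, Adam8 and Timp2 without S01, S09 or S11, with adjusted p up to 0.062. Integrin and focal adhesion genes had 3 of 35 called: Flna, the focal adhesion protein Zyx (0.72 ± 0.14, adjusted p = 0.0221) and Itgav, integrin alpha V (1.26 ± 0.28, adjusted p = 0.0289). Zyx missed the threshold without S09 or S11 and Itgav without S01, S02, S05, S09, S11, S13 or S14 (up to 0.0551 and 0.0843). None of 16 basement membrane genes passed (median 0.81). Without S09 and S10, 5 of the glycoproteins, 5 of the proteases and 3 of the basement membrane genes were called. Over all genes, 220 of 12566 were called higher in that fit. S09 and S10 were singled out after their values were seen, so these counts are no independent support.

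Markers of stromal cells were measured beside these genes. The fibroblast list had a level of 0.49 to 1.23 in tumors and 0.156 to 0.654 in normal libraries, where S10 was highest. Of its 16 genes 3 were tested and 2 called, Fn1 and the complement gene C3, while Col1a1, Col1a2, Col3a1 and Dcn were at 0.856 CPM or less in every library. The endothelial level was 0.459 to 1.84 against 0.274 to 1.11, with 6 of 14 genes tested, all 6 with a positive fold, a median of 2.02 and none called. Cdh5, the cadherin of endothelial junctions, was at 2.61, 25.6 and 157 CPM in tumors and at 0.00, 0.0447 and 30.3 CPM in normal libraries (3.27 ± 1.39, adjusted p = 0.239), while Pecam1 was at 1.84 CPM or less, Kdr at 0.225 CPM or less, and Emcn and Cldn5 at 0. Cdh5 was chosen after its values were seen. The part of such cells in the matrix results was not tested. In such bulk libraries fewer cells of a type and less RNA per cell cannot be told apart.

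Epithelial inflammation genes had 3 of 19 called and a median of 0.79. Duoxa2, which matures the hydrogen peroxide source Duox2, was at 9.88, 22.8 and 36.9 CPM in tumors and at 2.17, 4.83 and 9.24 CPM in normal libraries (2.27 ± 0.33, adjusted p = 0.0061). Icam1, an adhesion molecule for leukocytes, was at 2.94, 5.94 and 17.9 CPM against 1.70 CPM or less (3.45 ± 0.69, adjusted p = 0.0238; up to 0.0674 without S01, S09, S11 or S13). Lcn2, an iron-scavenging protein, was at 2.25, 12.3 and 135 CPM against 9.06 CPM or less (4.90 ± 1.11, adjusted p = 0.0337; up to 0.0909 without S01, S02, S05, S09, S11, S12, S13 or S14). The leukocyte level was 0.0728 to 0.443 in tumors and 0.174 to 0.487 in normal libraries. No MHC class I or class II gene was called.

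Genes of fetal and regenerating epithelium had 6 of 14 called, all 14 positive and a median of 1.93. The annexins Anxa1 (4.55 ± 1.09, adjusted p = 0.0418) and Anxa5 (1.67 ± 0.33, adjusted p = 0.0228), the alarmin Il33 (3.23 ± 0.76, adjusted p = 0.0393) and Tmsb10, an actin-binding thymosin (0.83 ± 0.21, adjusted p = 0.0474), were among those called. S100a6 was at 8950 CPM in S03 and at 25 to 220 CPM in the other tumor libraries, and its fold of 6.08 ± 1.43 was 1.98 ± 0.76 without S03 (adjusted p = 0.19). Anxa1 and Tmsb10 were named after their values were seen. Anxa5 missed the threshold without S01, S09 or S11 (adjusted p up to 0.062), and Il33 without 11 of the 14 libraries in turn (up to 0.113). The list count was again 6 without S12 and 6 without S09 and S10.

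Stem cell genes were called in 2 of 26 cases, Cd44 and Prom1, a membrane protein of crypt cells at 386, 437 and 720 CPM against 149, 205 and 336 CPM (1.14 ± 0.22, adjusted p = 0.0222; up to 0.0556 without S01, S05, S09 or S11). Gastric and other foregut genes had all 10 tested members positive, a median of 2.55 and none called. S09 and S10 had a level of 1.81 and 2.06 on that list, inside the 1.71 to 3.41 of the tumors, and the other 6 normal libraries were at 0.60 to 0.75. Muc6, a mucin of gastric glands, was at 57.5, 400 and 3800 CPM in tumors and at up to 307 CPM in normal libraries (3.94 ± 1.67, adjusted p = 0.238). Without S09 and S10, 6 of 9 were called and the median was 5.68. Both libraries were singled out after values such as these were seen, so leaving them out raises this list by construction. Over all genes, 220 of 12566 were called higher in that fit.

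Among the 12 lower genes with the largest folds and no overlap, Gimd1, a GTPase of the GIMAP family, was at 0.543, 2.46 and 6.78 CPM in tumors and at 7.19, 20.8 and 41.2 CPM in normal libraries (-2.84 ± 0.58, adjusted p = 0.0246). Ces1e, a carboxylesterase, was at 2.88, 4.37 and 10.7 CPM against 10.7, 24.6 and 35 CPM (-2.07 ± 0.39, adjusted p = 0.0196), with the tumor library S03 and the normal library S06 both at 10.7 CPM after rounding. Fbp1, a gluconeogenic phosphatase (-1.48 ± 0.33), Oat, ornithine aminotransferase (-1.02 ± 0.23), Dhrs3, a retinal reductase (-1.06 ± 0.23), and Slc25a15, the mitochondrial ornithine carrier (-0.91 ± 0.20), fell as well, with adjusted p of 0.0277 to 0.0329 in edgeR. Vipr1, a receptor of vasoactive intestinal peptide, was at 55.5, 123 and 162 CPM against 206, 225 and 261 CPM (-1.0 ± 0.20, adjusted p = 0.0246). These 7 lost their calls in 2 to 8 of the 14 fits that left out a library, with adjusted p up to 0.0852, and each of them without S09.

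In the list of sugar, amino acid and bile acid uptake 2 of 18 fell, among them Khk, ketohexokinase, at 10.9, 27.2 and 47.1 CPM in tumors against 27.6, 94.4 and 153 CPM (-1.71 ± 0.39, adjusted p = 0.0341). It lost its call without 8 of the 14 libraries in turn (up to 0.0863). In lipid absorption 20 of 21 folds were negative (median -1.02), in brush border hydrolases 18 of 19 (median -0.74), and in enteroendocrine genes 27 of 28 (median -1.23), with none called in the 3 lists. Sis, sucrase-isomaltase, was at 102, 444 and 695 CPM in tumors and at 275, 1580 and 3040 CPM in normal libraries (-1.79 ± 0.58, adjusted p = 0.12). The level of these lists split the normal libraries too. Lipid absorption was at 6.02 to 7.08 in the normal libraries S01, S05, S09, S10 and S13 and at 5.03 to 5.32 in S02, S06 and S14, inside the tumor range of 4.54 to 6.40. Nuclear genes of oxidative phosphorylation had 31 of 38 negative folds, a median of -0.37 and 1 call, Sdhc, a subunit of succinate dehydrogenase at 62.3, 76.2 and 97.4 CPM against 101, 112 and 142 CPM (-0.58 ± 0.13, adjusted p = 0.0277; up to 0.0764 without S01, S05, S09, S11 or S13). Small intestine markers fell in 1 of 15, Gata4, with a median of -1.03. Colon markers had 1 of 5 tested members called, Cd177, which rose, while 4 had a negative fold (median -0.91).

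**Figure D4:**
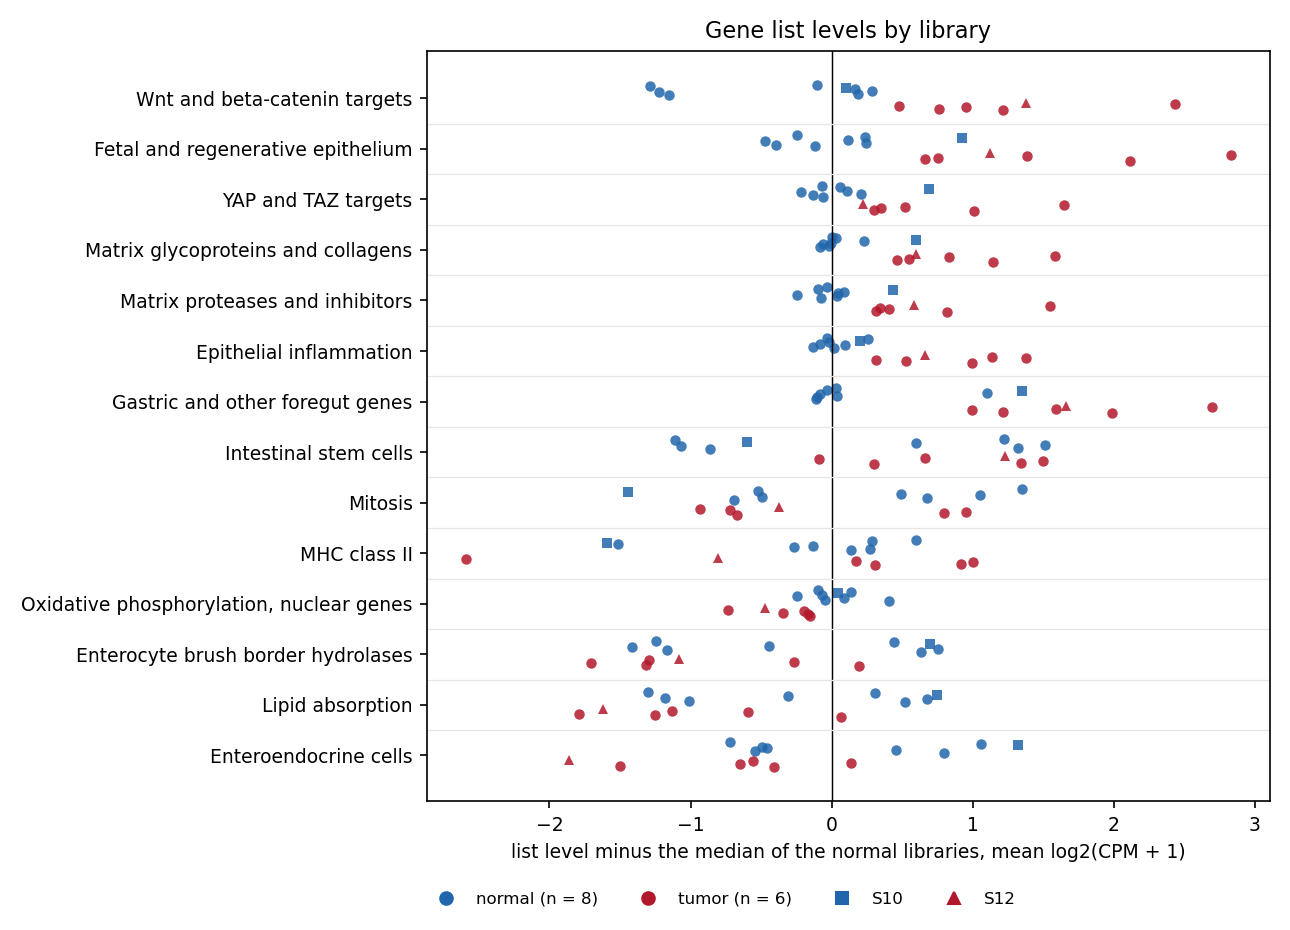
Level of 14 gene lists in each library, as mean log2(CPM + 1) minus the median of the 8 normal libraries (horizontal axis), with normal libraries in blue, tumor libraries in red, S10 as a square and S12 as a triangle. Wnt and epithelial inflammation levels do not overlap between tissues, stem cell, mitosis and lipid absorption levels do, and S10 and S09 lie among the tumors for gastric and foregut genes.

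None of 28 DNA replication genes, 26 mitosis genes, 23 Myc and ribosome biogenesis genes, 23 glycolysis genes or 20 cholesterol synthesis genes was called, with medians of -0.0095, -0.16, 0.0084, 0.0092 and -0.0089. Of the mitosis genes 22 of 26 had a negative fold, and of the DNA replication genes 14 of 28. Mki67, a marker of cycling cells, was at 365, 567 and 1430 CPM in tumors and at 296, 844 and 1760 CPM in normal libraries (-0.27 ± 0.41, adjusted p = 0.806). Paneth, goblet and tuft cell genes had no calls either, with 6 of 17, 9 of 16 and 16 of 18 positive folds and medians of -0.94, 0.11 and 0.64. A count of 0 does not show that the levels were equal.

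Promoters of called genes were searched for 6 short motifs in the 250 bases before each RefSeq gene start on GRCm38.p6, on both strands, in 180 higher, 44 lower and 10033 tested genes with an entry, several of them with more than 1 start. The TCF/LEF letters CTTTGAT were in 3.33% of higher genes, 4.55% of lower genes, 17.6% of the Wnt list (3 of 17) and 2.84% of genes tested, and in 3.21% of all 32851 promoters. The FOX letters TGTTTAC were in 5.56% of higher, 0% of lower and 2.78% of tested genes (3.17% of all promoters). For the TEAD letters GGAATG the shares were 20.6%, 15.9% and 12.7% (12.6% of all), for the AP-1 letters TGANTCA 7.78%, 4.55% and 5.53% (6.75%), for AGATAAG, read by GATA factors, 4.44%, 2.27% and 2.17% (2.74%), and for the HNF4 letters CAAAGTCCA 0%, 2.27% and 0.488% (0.384%). CTTTGAT and CAAAGTCCA shared bases in 7 promoters of the table. A match is a description of these letters only.

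The promoters printed below belong to genes described above, 5′ to 3′ on the gene's strand. Capitals mark only the motif named here for each gene. Matches to the other motifs are left in small letters, such as the TEAD letters GGAATG at 84 bases in Fxyd3. Sp5 (chr2:70474673-70474922, plus strand), a called Wnt target named here for its match after its values were seen, has CTTTGAT beginning 104 bases before the start. Fxyd3 (chr7:31076698-31076947, minus strand) has it at 206 bases, and Arhgef3 (chr14:27361139-27361388, plus strand) at 16 bases before a start inside the gene. Foxa1 (chr12:57546112-57546361, minus strand) has the FOX letters in reverse, GTAAACA, at 141 bases. S100a11 (chr3:93520246-93520495, plus strand) has TGAGTCA, an AP-1 match, at 136 and 38 bases. Gimd1 (chr3:132629596-132629845, plus strand), the lower gene with the largest fold among those named, has the HNF4 letters at 13 bases before a start upstream of the gene's span in the count table.
Sp5: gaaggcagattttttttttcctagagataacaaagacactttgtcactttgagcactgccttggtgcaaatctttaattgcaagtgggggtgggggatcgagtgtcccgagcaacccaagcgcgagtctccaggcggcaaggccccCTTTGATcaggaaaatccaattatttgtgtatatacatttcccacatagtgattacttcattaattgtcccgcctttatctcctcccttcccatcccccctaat
Fxyd3: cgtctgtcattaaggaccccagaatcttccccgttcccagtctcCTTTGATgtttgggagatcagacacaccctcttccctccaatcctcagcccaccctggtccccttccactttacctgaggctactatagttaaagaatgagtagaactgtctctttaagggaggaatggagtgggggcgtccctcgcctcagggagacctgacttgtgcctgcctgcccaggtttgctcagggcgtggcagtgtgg
Arhgef3: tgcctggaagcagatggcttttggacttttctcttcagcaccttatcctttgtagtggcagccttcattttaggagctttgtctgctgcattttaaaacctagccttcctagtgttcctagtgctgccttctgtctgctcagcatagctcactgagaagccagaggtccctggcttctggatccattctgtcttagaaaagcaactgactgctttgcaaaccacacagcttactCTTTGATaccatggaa
Foxa1: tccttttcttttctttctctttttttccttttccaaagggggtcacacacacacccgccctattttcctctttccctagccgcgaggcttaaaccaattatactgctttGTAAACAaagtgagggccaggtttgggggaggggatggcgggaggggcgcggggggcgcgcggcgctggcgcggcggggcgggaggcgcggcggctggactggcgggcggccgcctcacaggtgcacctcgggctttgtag
S100a11: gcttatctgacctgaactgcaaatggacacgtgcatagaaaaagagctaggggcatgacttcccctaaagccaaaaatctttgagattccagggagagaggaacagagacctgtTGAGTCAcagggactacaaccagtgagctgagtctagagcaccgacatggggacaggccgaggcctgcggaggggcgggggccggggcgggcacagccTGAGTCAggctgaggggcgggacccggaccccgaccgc
Gimd1: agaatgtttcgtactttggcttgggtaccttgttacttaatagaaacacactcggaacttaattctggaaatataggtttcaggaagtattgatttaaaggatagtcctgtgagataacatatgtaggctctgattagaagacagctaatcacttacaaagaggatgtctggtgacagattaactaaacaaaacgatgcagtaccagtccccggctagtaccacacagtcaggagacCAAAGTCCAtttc

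The tissue difference was also measured within each labelled fraction. Of the 236 higher genes, 234 were tested in both fractions, and 234 had a positive fold in Lrig1-low and 233 in Lrig1-high libraries, with medians of 2.57 and 1.62. All 53 lower genes had a negative fold in both (medians -1.17 and -0.85). These genes were chosen on the same libraries, so the shared sign is no independent support. Alone, the Lrig1-low libraries gave 61 higher and 7 lower genes, and the Lrig1-high libraries gave 0 and 0 in edgeR, with 457 and 196 at an unadjusted p under 0.05. The difference between the fractions was tested itself. No gene passed in edgeR's test of the interaction, with 850 at an unadjusted p under 0.05, 2 passed in DESeq2 and 0 in limma-voom, and without S04 edgeR called 206.

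**Figure D5:**
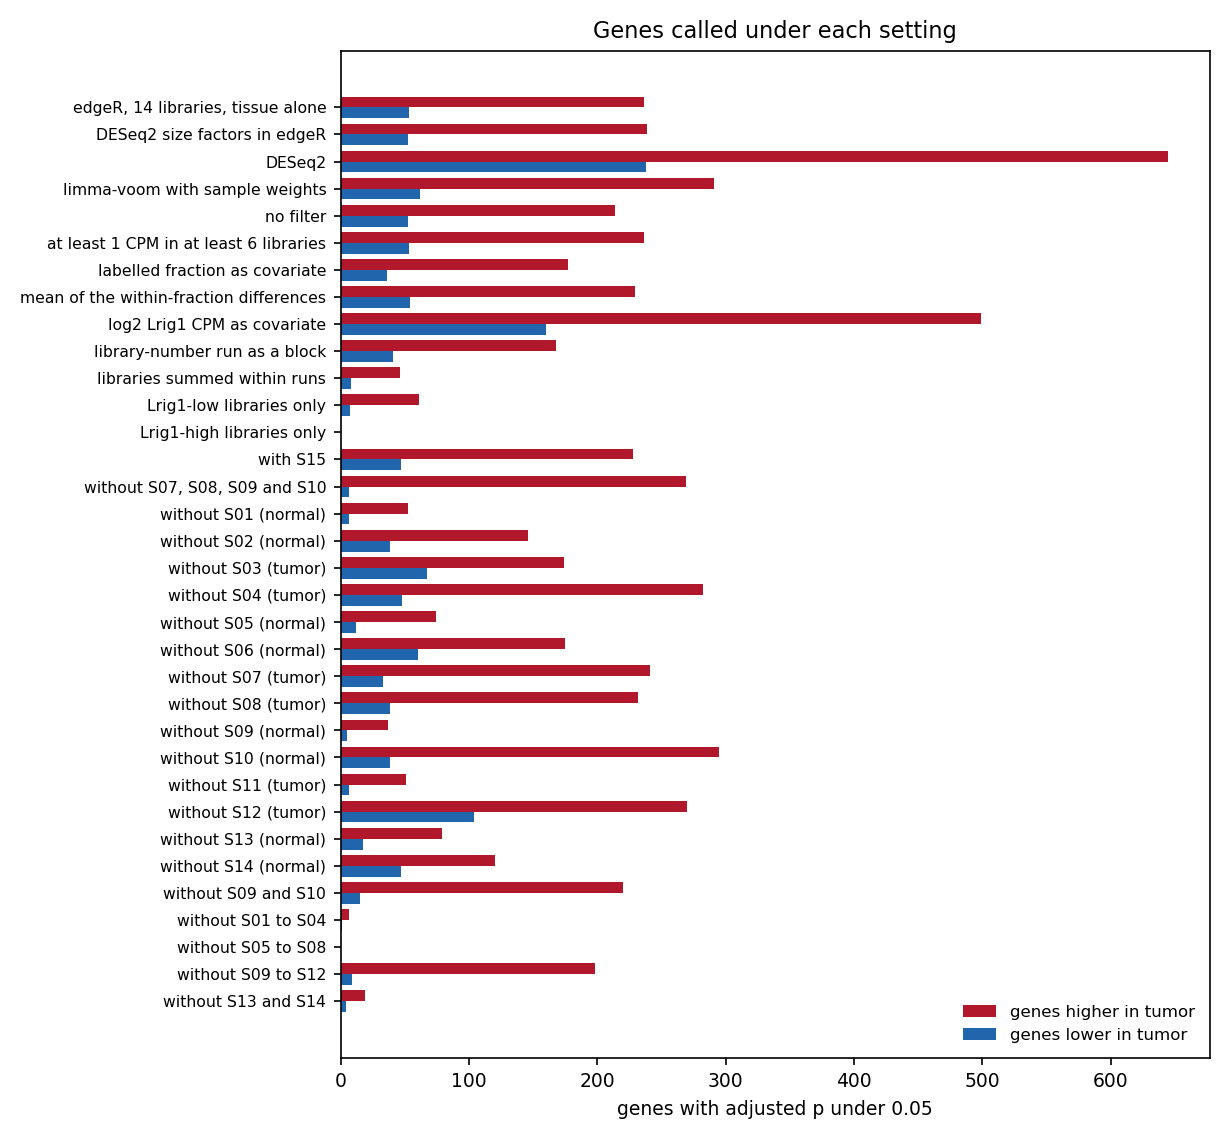
Number of genes called higher (red) and lower (blue) in tumors under each setting, with bars starting at 0. The fit on all 14 libraries gave 236 and 53, DESeq2 645 and 238, libraries summed within runs of consecutive numbers 46 and 8, and the fit without S05 to S08 gave 0 and 0.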

How the data were processed

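Total RNA of sorted cells was made into libraries with a stranded low-input kit and sequenced paired-end, per the labels' protocols. Trimming with Trimmomatic, HISAT2, and featureCounts from Subread on mm10 are listed in the submitters' processing notes, and the deposited table holds raw counts per gene over exons, made with featureCounts 1.5.3 per the file headers. Of 27179 genes, 25275 took a symbol from RefSeq and 18 from GENCODE by gene identifier. Libraries were grouped by title, and 1 with under 1000 counts was left out. Tumor and normal libraries were compared with edgeR 4.0.16 (TMM, filterByExpr, quasi-likelihood test, Benjamini-Hochberg over all genes tested, adjusted p under 0.05) in R 4.3.3, which was tested on simulated data. Fold changes are log2, tumor over normal, ± SE, and levels are CPM on TMM-scaled library sizes. The SE was taken as the absolute log2 fold change over the square root of the quasi-likelihood F statistic, so it follows from that test. Genes named were the 4 Wnt markers, sort and target genes, per direction the 12 called genes with the largest fold, at least 10 CPM and no overlap, and up to 4 called members per list, or the 2 most abundant where none was called. Others are said to have been chosen after their values were seen, and some genes the rule names are not reported here. Members and lists were chosen with earlier results of these data known. Alternatives were DESeq2 1.42.0, limma 3.58.1 voom, other filters and covariates, summed libraries and libraries left out. Sequences are RefSeq's for GRCm38.p6.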

Additional observations from a re-analysis of the deposited data

Results flagged for a closer look

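A library was far from the others of its tissue in 21 of 220 groups of values tested by the gap to its nearest neighbour, where chance gives about 1 in 20. The tumor library S12 had 42.8% of its counts in mitochondrial ribosomal RNA and 6.69% in other mitochondrial genes, a mitochondrial genome level of 8.97 and a sex-linked level of 2.40. Of the 5 genes on the sex-linked list, 4 were at 0 in every library compared, so that level rests on 1 gene. Among normal libraries, S10 was far above the rest in levels of basement membrane (2.52), matrix glycoproteins and collagens (1.46), integrins and focal adhesion (4.99), YAP and TAZ targets (3.01), fibroblasts (0.654) and endothelial cells (1.11). On the log2(CPM + 1) scale S10 was also far above the other normal libraries in Fn1 (3.01), Ptprz1 (1.07), Wif1 (3.25), Rbms3 (2.81), Arhgef17 (3.01) and Lcn2 (3.33). Among tumor libraries, S11 was far from the rest in Oat (8.55), Mmp14 (8.18) and Tgfbr2 (7.15), and S03 in S100a6 (13.1).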

How the results depend on the processing

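No paired analysis was possible by replicate number, because the library numbers in the labels are unique and the tissues share none. With a block for each run of neighbouring library numbers, 168 genes were called higher and 41 lower. Of these, 126 and 29 were among the 236 and 53. The 236 higher and 53 lower genes became 645 and 238 in DESeq2, 499 and 160 with the Lrig1 covariate, 46 and 8 with libraries summed within runs, 61 and 7 in Lrig1-low and 0 and 0 in Lrig1-high libraries. Without S07 to S10 there were 6 lower genes. Settings chosen after seeing the data gave 15 lower genes without S09 and S10, 6 and 1 without S01 to S04, 0 and 0 without S05 to S08 (1343 and 599 at an unadjusted p under 0.05), 9 lower without S09 to S12, and 19 and 4 without S13 and S14. Leaving out 1 library gave 37 to 295 higher and 5 to 104 lower genes, and 0 to 206 interaction genes in edgeR. On all 14 libraries DESeq2 called 2 interaction genes. The causes were not tested. Leaving out 1 library moved the tumor minus normal difference in total counts from -2423000 to -1372000, in genes with at least 10 counts from -323.1 to 317.5, in mitochondrial ribosomal RNA from -3.85 to 2.14 percentage points, in other mitochondrial genes from -0.375 to 0.729 and in log2 Lrig1 from -0.16 to 0.19. No named gene changed sign while called. Over settings other than leaving out 1 library, 445 calls of named genes were lost, 24 gained and 1387 kept their side of the threshold. The 1387 include genes called in neither fit. Of the 61 named genes called on all 14 libraries, 0 to 61 stayed called, depending on the setting.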

Other observations

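In 62 genes a single library had at least 100 CPM and at least 20 times the next library. S14 held 30 of them and S13 held 13, both normal, and the tumor library S03 held 8. Called among them were S100a6 and Rbm28, both by S03. Rbm28, a nucleolar RNA-binding protein chosen after its values were seen, was at 8620 CPM in S03 and at 34.4 to 49.7 CPM in the other 13, and its log2 fold change of 5.14 ± 1.27 (edgeR, adjusted p = 0.0474) was 0.02 ± 0.14 without S03 (adjusted p = 0.962). Slc38a4, an amino acid transporter outside these 62 genes, was at 4510 CPM in S03 and 361 CPM in S11. Its fold of 7.78 ± 1.68 was 5.13 ± 1.22 without S03 (edgeR, adjusted p = 0.0486). Without S11 it was 7.94 ± 1.75 and missed the threshold (adjusted p = 0.0601).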
